A study of Mus musculus with 9 samples.

Results

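Transcripts of leukocytes and endothelial cells were measured in cultured cardiac fibroblasts that had been sorted against both lineages. The set was given as 35 gene symbols, 22 of leukocytes and 13 of endothelial cells, out of 38924 genes in the table, and all 35 had a count in at least 1 library. Ptprc encodes CD45, the surface phosphatase of nearly all white blood cells, and Pecam1 encodes CD31, an adhesion molecule of endothelial junctions. The questions were how much of each lineage remained after the sort and whether the amount differed between libraries.

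The libraries came from primary cardiac fibroblasts of mice aged 8 to 10 weeks, with the genotype C57BL/6 background Cas9GFP, so that all groups, controls included, expressed Cas9 and GFP. After 3 days in culture the cells were sorted as CD45- CD31- CD90+ and replated, and 6 days later guide RNAs were transfected. The 3 groups were control (scrambled guides), Gata4 KD and Tbx20 KD (guides against these cardiac transcription factors), each with 3 libraries lettered a, b and c. Transfection of a mixed culture leaves edited and unedited cells together, and no label gives the animal, sort or culture behind a library, so p-values measure the spread between these libraries only. Total counts were 31214828 to 41950397 per library. Gata4 was 66.2% lower in Gata4 KD than in control (adjusted p = 0.00272, edgeR quasi-likelihood test), and Tbx20 was 60.3% lower in Tbx20 KD without passing that test (adjusted p = 0.748).

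The heart holds resident macrophages that take up debris, present antigen and secrete complement, and a dense capillary bed whose lining cells carry junction proteins, vascular receptors and clotting factors. Both cell types lie close to fibroblasts and come away with them when the tissue is dissociated. A sort reduces such cells but acts on protein at the surface at one time, and some of the genes commonly used as lineage markers are also transcribed by stromal cells. In bulk RNA, fewer cells of a type and less RNA per cell cannot be told apart.

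Transcripts of the sorted proteins were present at a low level in every library. Levels are given as CPM, the count of a gene in each 1000000 counts of its library. Intervals of single genes are 95% Wilson intervals that cover counting error only. Ptprc was at 2.03, 2.92 and 1.96 CPM in control, 2.73, 1.63 and 2.67 CPM in Gata4 KD, and 2.00, 3.20 and 2.34 CPM in Tbx20 KD, in the order a, b, c. These values rest on 59 to 106 counts, and the 3 groups overlapped. The interval of the lowest library, Gata4 KD b, was 1.26 to 2.10 CPM and that of the highest, Tbx20 KD b, was 2.63 to 3.90 CPM. Pecam1 was at 3.06, 7.64 and 5.90 CPM in control, 8.43, 9.25 and 6.97 CPM in Gata4 KD, and 8.22, 5.09 and 6.19 CPM in Tbx20 KD. Control a was the lowest library, with an interval of 2.54 to 3.67 CPM, and Gata4 KD b the highest, with 8.31 to 10.3 CPM. Thy1, which encodes the CD90 used to select the cells, was at 76.6 to 110 CPM. Per kilobase of annotated exon the mean levels were 29.6 CPM for Thy1, 1.08 CPM for Pecam1 and 0.13 CPM for Ptprc.

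The 22 leukocyte genes together held between 43.8 and 121 CPM of a library, or 0.00438% to 0.0121% of its counts. The sums were 89.6, 81.4 and 79.1 CPM in control, 76.2, 43.8 and 80.8 CPM in Gata4 KD, and 76.0, 121 and 83.1 CPM in Tbx20 KD. A single library stood low and another stood high, Gata4 KD b and Tbx20 KD b, 2.77-fold apart, while the other 7 lay between 76.0 and 89.6 CPM. The group means were 83.4 ± 5.56 CPM in control, 67.0 ± 20.1 CPM in Gata4 KD and 93.5 ± 24.5 CPM in Tbx20 KD (SD, n = 3), so each knockdown differed from control by less than the SD of its own libraries. The knockdown means differed by more than either SD, but their libraries overlapped. The 13 endothelial genes together held 554 to 707 CPM, almost all of it Eng, and the other 12 held 17.3 to 28.2 CPM. Without Eng the sums were 17.3, 24.8 and 22.7 CPM in control, 25.1, 28.2 and 28.2 CPM in Gata4 KD, and 22.5, 23.0 and 25.4 CPM in Tbx20 KD. Group means of this sum were 21.6 ± 3.87 CPM in control and 27.2 ± 1.78 CPM in Gata4 KD (SD, n = 3). These means differed by more than either SD, and the 3 Gata4 KD libraries lay above every control. Tbx20 KD, at 23.7 ± 1.57 CPM (SD, n = 3), overlapped both groups. The nearest pair of Gata4 KD and control, 25.1 and 24.8 CPM, had overlapping intervals of 23.4 to 26.9 and 23.2 to 26.5 CPM. These intervals cover counting error only and do not measure the spread between libraries. No test was made of either sum, since the genes were listed with results of these data known.

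**Figure D1:**
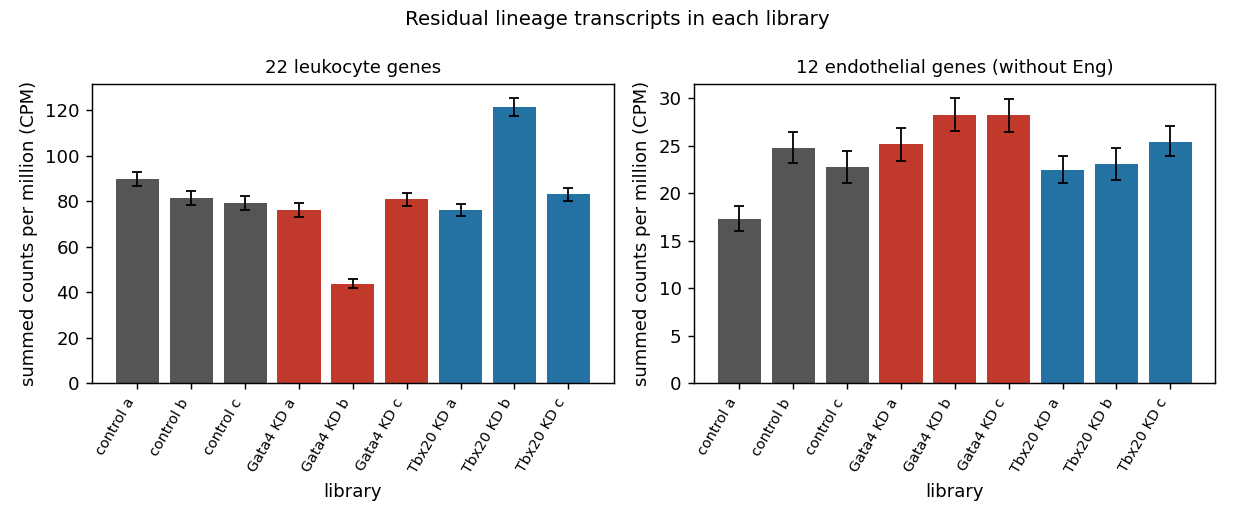
Summed CPM (y axis, from 0) of the 22 leukocyte genes (left) and of 12 endothelial genes without Eng (right) in each of the 9 libraries (x axis, grey control, red Gata4 KD, blue Tbx20 KD). Error bars give exact 95% Poisson intervals for counting error. Gata4 KD b at 43.8 CPM and Tbx20 KD b at 121 CPM stand apart on the left, and on the right control a is lowest at 17.3 CPM.

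Most leukocyte genes had the same low and the same high library. Of the 22 leukocyte genes, 18 had their lowest CPM in Gata4 KD b, 17 had their highest in Tbx20 KD b, and 15 had both. The median gene stood at 0.494 of its mean over the 9 libraries in Gata4 KD b and at 1.52 in Tbx20 KD b. On the log2 scale these median deviations were -0.61 and 0.51, against -0.0067 and 0.0242 over all tested genes in the same libraries. In the other 7 libraries the leukocyte median deviated by -0.06 to 0.15. Both libraries were of ordinary depth, at 36218376 and 31214828 counts, the latter being the smallest total. The predicted gene Gm42418, which overlaps ribosomal RNA, took 0.504% and 0.385% of their counts. This was within the 0.297% to 1.11% of the 8 libraries other than Gata4 KD a, where Gm42418 took 2.71%. Fibroblast genes were mixed in these libraries. Of 12 in the fibroblast list, 7 were lowest in Gata4 KD b, among them Col1a1, Col1a2 and Col3a1, and 2 were highest in Tbx20 KD b. Thy1 went the other way, at 82.8 CPM in Gata4 KD b and 76.6 CPM in Tbx20 KD b, its lowest value. Tcf21, a transcription factor of cardiac fibroblasts, went from 88.4 CPM in Gata4 KD b to 256 CPM in Tbx20 KD b, and Dcn, the matrix proteoglycan decorin, from 93.2 to 204 CPM, each the lowest and the highest of its 9 values. The list summed to 11698 CPM in Gata4 KD b, its lowest value, and to 17377 CPM in Tbx20 KD b, below the 18434 CPM of Tbx20 KD c. The part of depth, of Gm42418 and of the fibroblast genes in the leukocyte levels was not tested.

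**Figure D2:**
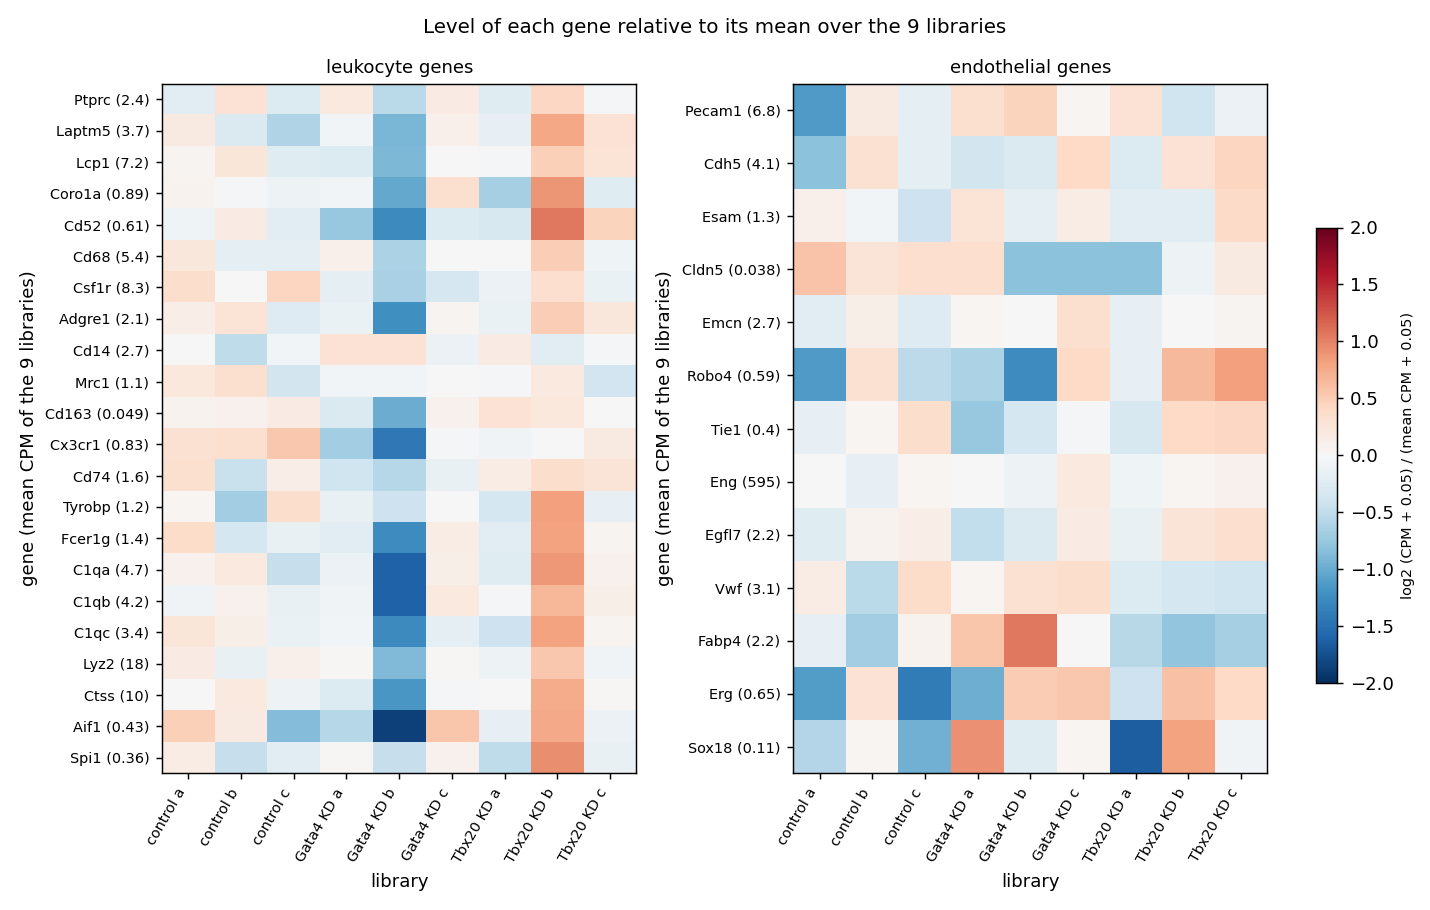
Each row is a gene, with its mean CPM over the 9 libraries in brackets, and each column a library. Colour gives the log2 ratio of CPM + 0.05 to the gene's mean + 0.05, blue below and red above. Gata4 KD b is blue for nearly all leukocyte genes and Tbx20 KD b red, with 1 and 21 of 22 genes above their mean. No endothelial column is of a single colour, but 1 of 13 genes is above its mean in Tbx20 KD a and 11 of 13 in Gata4 KD c.

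Among the pan-leukocyte genes, Lcp1, an actin-bundling protein of white blood cells, was the most abundant. It was at 7.52, 8.55 and 6.12 CPM in control, 5.98, 3.84 and 7.16 CPM in Gata4 KD, and 7.15, 10.1 and 8.73 CPM in Tbx20 KD. Laptm5, a lysosomal membrane protein of blood cells, was at 4.25, 3.03 and 2.45 CPM in control, 3.59, 1.96 and 4.02 CPM in Gata4 KD, and 3.31, 6.38 and 4.58 CPM in Tbx20 KD. Both had Gata4 KD b lowest and Tbx20 KD b highest, and the groups overlapped in both knockdowns against control. Coro1a, an actin regulator of lymphocytes and macrophages, was at 0.414 to 1.70 CPM, and Cd52, a small surface glycoprotein, at 0.221 to 1.31 CPM. Their ranges over the 9 libraries spanned 4.10-fold and 5.95-fold, against 1.97-fold for Ptprc.

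The macrophage surface genes were led by Csf1r, the receptor for colony stimulating factor that macrophages need to survive. Csf1r was at 10.6, 8.24 and 11.2 CPM in control, 7.23, 5.30 and 6.56 CPM in Gata4 KD, and 7.70, 10.5 and 7.61 CPM in Tbx20 KD. All 3 Gata4 KD libraries lay below all controls and all Tbx20 KD libraries, while Tbx20 KD and control overlapped. Cx3cr1, the fractalkine receptor of monocytes and resident macrophages, was at 1.03, 1.05 and 1.22 CPM in control, 0.490, 0.276 and 0.799 CPM in Gata4 KD, and 0.787, 0.833 and 0.945 CPM in Tbx20 KD. Both knockdown groups lay below every control for Cx3cr1, and they overlapped each other. These 2 genes and Cd14, Mrc1, Cd163, Tyrobp and Spi1 are the 7 leukocyte genes that did not have both their lowest value in Gata4 KD b and their highest in Tbx20 KD b.

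Cd68, a lysosomal glycoprotein, was at 3.48 to 7.59 CPM and Adgre1, the F4/80 antigen of mouse macrophages, at 0.884 to 3.01 CPM, each lowest in Gata4 KD b and highest in Tbx20 KD b. Cd14, a co-receptor for bacterial lipopolysaccharide, went the other way, with 3.31 CPM in Gata4 KD b as its highest value and 2.31 CPM in Tbx20 KD b. Its values in control were 2.68, 1.88 and 2.60 CPM. Mrc1, the mannose receptor, was at 0.846 to 1.41 CPM with 1.08 CPM in Gata4 KD b, so its level there was not set apart. Cd163, a haemoglobin scavenger receptor of resident macrophages, had between 0 and 3 counts in any library, which is at or below the floor of 3 counts (0.0715 to 0.0961 CPM), and it was too low to be tested. Cd74, the invariant chain of MHC class II, was at 2.00, 1.16 and 1.74 CPM in control, 1.196, 1.05 and 1.43 CPM in Gata4 KD, and 1.76, 2.05 and 1.92 CPM in Tbx20 KD. Every Gata4 KD library was below every Tbx20 KD library for Cd74, and both overlapped control.

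The complement and lysosomal genes also had Gata4 KD b lowest and Tbx20 KD b highest, 5.08-fold apart for the complement sum and 3.03-fold for the lysosomal sum. C1qa, C1qb and C1qc encode the chains of C1q, the recognition part of the classical complement pathway, and lie side by side on the minus strand of chromosome 4 in GRCm38, C1qb at chr4:136880129-136886187, C1qc at chr4:136889804-136893065 and C1qa at chr4:136895917-136898803. C1qa was at 5.003, 5.38 and 3.39 CPM in control, 4.32, 1.49 and 5.10 CPM in Gata4 KD, and 3.96, 8.59 and 4.999 CPM in Tbx20 KD. The summed level of the 3 genes was 4.20 CPM in Gata4 KD b, 21.3 CPM in Tbx20 KD b and 10.3 to 13.5 CPM in the other 7 libraries. The proportions among the 3 genes moved far less than the sum. C1qa held 32.9% to 40.3% of the summed count, C1qb 30.5% to 38.8% and C1qc 23.2% to 32.9%, although that count went from 152 to 665.

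Lyz2, the lysozyme of myeloid cells, was the most abundant leukocyte gene, at 20.7, 16.6 and 19.8 CPM in control, 18.8, 9.94 and 18.7 CPM in Gata4 KD, and 17.3, 26.8 and 17.7 CPM in Tbx20 KD. Of its 75-base windows 5.96% also occur in its near copy Lyz1, so part of its count is uncertain. Ctss, the lysosomal protease cathepsin S, was at 10.1, 11.6 and 9.48 CPM in control, 8.40, 4.47 and 9.83 CPM in Gata4 KD, and 10.1, 17.0 and 10.2 CPM in Tbx20 KD. The 7 libraries between the low and the high one lay at 16.6 to 20.7 CPM for Lyz2 and 8.40 to 11.6 CPM for Ctss. The ITAM adaptors Tyrobp and Fcer1g, which pass on signals from activating receptors, summed to 1.46 CPM in Gata4 KD b, 4.68 CPM in Tbx20 KD b and 1.82 to 3.08 CPM elsewhere. Aif1, the calcium-binding protein IBA1, was at 0.0828 to 0.769 CPM and Spi1, which encodes the myeloid transcription factor PU.1, at 0.238 to 0.737 CPM. Both were highest in Tbx20 KD b. Per kilobase of annotated exon, Lyz2 at 14.0 CPM and Ctss at 7.46 CPM were followed by C1qa at 4.51 CPM and Cd68 at 4.29 CPM.

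The promoters of the set were searched for GAGGAA (or TTCCTC on the other strand), a sequence bound by PU.1. The search covered the 250 bases before the start of each gene in the RefSeq table for GRCm38.p6. That table held 14 of the 22 leukocyte genes and 7 of the 13 endothelial genes. The letters were present in 8 of 14 (57.1%) and in 4 of 7 (57.1%), and in 25.9% of the 27025 genes in the table. For CAGGAA (or TTCCTG), another core read by ETS factors, the numbers were 9 of 14 (64.3%), 5 of 7 (71.4%) and 28.3%. GAGGAA and CAGGAA share their last 5 letters but cannot overlap on the same strand. A match describes the letters and is not a binding site. Any link between these letters and the levels in the libraries was not tested. The promoters of Cd68, C1qb, Ctss and Eng are given below because they hold GAGGAA outside every annotated exon, with the match in capitals, 5′ to 3′. They cover chr11:69666171-69666420 on the minus strand, chr4:136886201-136886450 on the minus strand, chr3:95526536-95526785 on the plus strand and chr2:32646345-32646594 on the plus strand.
Cd68: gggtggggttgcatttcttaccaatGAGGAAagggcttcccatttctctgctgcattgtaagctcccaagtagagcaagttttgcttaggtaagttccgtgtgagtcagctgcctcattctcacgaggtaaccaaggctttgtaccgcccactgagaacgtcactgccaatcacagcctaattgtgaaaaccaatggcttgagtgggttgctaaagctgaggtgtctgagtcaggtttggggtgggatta
C1qb: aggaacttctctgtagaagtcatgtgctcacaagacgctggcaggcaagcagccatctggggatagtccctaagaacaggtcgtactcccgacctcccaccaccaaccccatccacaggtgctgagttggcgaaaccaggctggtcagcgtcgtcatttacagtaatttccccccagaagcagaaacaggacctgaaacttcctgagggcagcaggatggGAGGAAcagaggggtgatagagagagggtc
Ctss: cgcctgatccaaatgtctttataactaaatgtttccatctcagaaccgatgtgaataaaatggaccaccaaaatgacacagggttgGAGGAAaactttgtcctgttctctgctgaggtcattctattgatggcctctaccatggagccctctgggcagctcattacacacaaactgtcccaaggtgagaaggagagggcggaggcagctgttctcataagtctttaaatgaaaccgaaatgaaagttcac
Eng: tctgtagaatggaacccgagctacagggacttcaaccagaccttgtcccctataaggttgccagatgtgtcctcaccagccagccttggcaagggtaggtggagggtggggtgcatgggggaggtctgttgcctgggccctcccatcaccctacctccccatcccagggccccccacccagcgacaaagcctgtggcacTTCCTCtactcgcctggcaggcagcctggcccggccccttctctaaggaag

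The endothelial genes did not share the library order of the leukocyte genes. Their lowest and highest values were spread over the libraries, with at most 5 of 13 highest in the same one, Tbx20 KD c, and at most 3 of 13 lowest in the same one, control c. In Gata4 KD b and Tbx20 KD b the median endothelial gene deviated by -0.10 and 0.04 on the log2 scale. Eng, the co-receptor for transforming growth factor beta that is also known from mesenchymal stromal cells, was at 591, 529 and 610 CPM in control, 589, 555 and 679 CPM in Gata4 KD, and 561, 612 and 630 CPM in Tbx20 KD. Its range spanned 1.28-fold, the narrowest of the set, and per kilobase of annotated exon its mean level of 147 CPM compared with 1.08 CPM for Pecam1.

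Of the other junction and surface genes, Cdh5, the cadherin that holds endothelial cells together, was at 2.30, 5.07 and 3.61 CPM in control, 3.16, 3.34 and 5.40 CPM in Gata4 KD, and 3.39, 5.03 and 5.55 CPM in Tbx20 KD. The groups overlapped, and control a was lowest for Cdh5 as for Pecam1. Emcn, a sialomucin of capillaries and veins, was at 2.29 to 3.44 CPM, and Esam, an adhesion molecule of tight junctions, at 0.948 to 1.69 CPM. Robo4, a guidance receptor of vessels, was at 0.221 to 1.09 CPM and the receptor kinase Tie1 at 0.215 to 0.547 CPM. Cldn5, the claudin of tight endothelial barriers, had 0 to 3 counts and the transcription factor Sox18 had 0 to 8, so neither was tested. Erg, a transcription factor that maintains endothelial identity, was at 0.214 to 0.993 CPM and varied 4.64-fold between libraries.

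Of the secreted proteins, Egfl7, which guides vessel assembly, was at 1.53 to 2.76 CPM, and Vwf, the clotting factor stored in endothelial granules, was at 3.46, 2.15 and 4.07 CPM in control, 3.22, 3.89 and 4.02 CPM in Gata4 KD, and 2.60, 2.44 and 2.36 CPM in Tbx20 KD. Vwf was higher in every Gata4 KD library than in any Tbx20 KD library, and control spanned both. Fabp4, a fatty acid carrier of capillary endothelium and adipocytes, was at 1.95, 1.32 and 2.29 CPM in control, 3.22, 4.58 and 2.204 CPM in Gata4 KD, and 1.48, 1.25 and 1.37 CPM in Tbx20 KD. Gata4 KD b, the lowest library for most leukocyte genes, was the highest for Fabp4 and for Pecam1. Every Gata4 KD library was above every Tbx20 KD library for Fabp4.

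**Figure D3:**
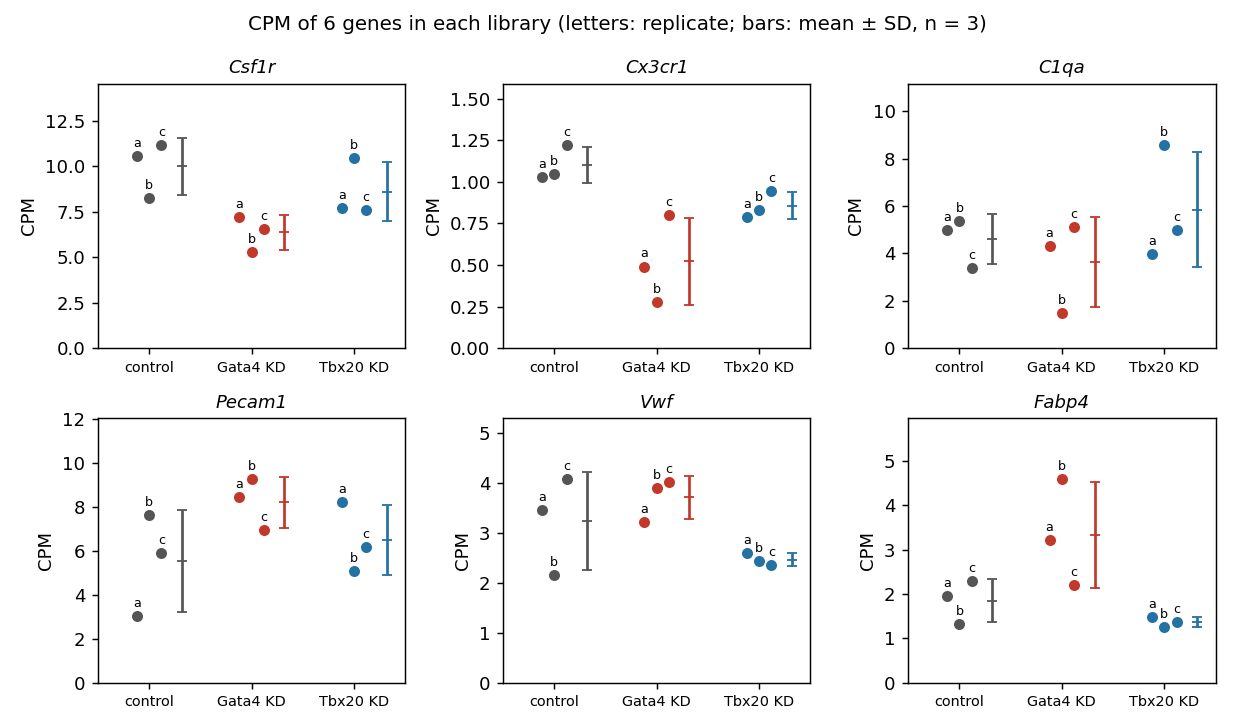
CPM (y axis, from 0) of 3 leukocyte genes (top) and 3 endothelial genes (bottom) in the 3 libraries of each group, lettered by replicate, with the mean ± SD (n = 3) to the right of the points. Gata4 KD lies below control for Csf1r and Cx3cr1, C1qa is lowest in Gata4 KD b and highest in Tbx20 KD b, and Gata4 KD lies above Tbx20 KD for Vwf and Fabp4.

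The spread of these genes was wider than counting error. As an index, the chi-square of a gene's counts against equal CPM in all libraries was divided by its degrees of freedom, which gives about 1 where counting error alone acts. Among genes with a mean of 1 to 10 CPM, the median was 7.59 for 14 leukocyte genes and 6.75 for 7 endothelial genes, and 3.26 for all 3410 genes at that level. For Lyz2 and Ctss, at 10 to 30 CPM, it was 35.4, beside 6.05 for the 3076 genes there. No test was made of these medians.

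In the comparison of Gata4 KD with control, 0 of the 21 leukocyte and 0 of the 11 endothelial genes tested passed an adjusted p of 0.05 by edgeR's quasi-likelihood test, where 0.38% of all 14468 tested genes passed. At an unadjusted p under 0.05 there were 2 leukocyte genes and 1 endothelial gene, beside 8.54% of all genes, and DESeq2 called 1 leukocyte gene, Csf1r, beside 1.89% of all genes. Csf1r had a log2 fold change of -0.64 ± 0.17 (SE) and an adjusted p of 0.236 by edgeR, and an adjusted p of 0.0401 by DESeq2. For Cx3cr1 the log2 fold change was -1.06 ± 0.37 (SE, adjusted p = 0.444, edgeR) and for Fabp4 it was 0.86 ± 0.30 (SE, adjusted p = 0.449, edgeR). All 3 Gata4 KD libraries were below all 3 controls for Cd52, Csf1r and Cx3cr1, or 3 of 21 leukocyte genes, where 7.91% of all genes had this order, and no tested gene of either lineage had the opposite order, which 5.54% of all genes had.

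Most leukocyte log2 fold changes in Gata4 KD against control were below 0, 18 of 21 with a median of -0.32, beside a median of -0.0167 over all tested genes. Without Gata4 KD b the numbers were 11 of 21 and -0.0054. Csf1r and Cx3cr1 kept log2 fold changes of -0.51 and -0.74 without that library, with adjusted p-values of 0.642 and 0.905 (edgeR). For the endothelial genes 9 of 11 log2 fold changes were above 0, with a median of 0.21, and with Gata4 KD b left out the median was 0.32. For Pecam1 the log2 fold change was 0.58 ± 0.29 (SE, adjusted p = 0.666, edgeR), and it was 0.29 without control a, the library where Pecam1 was lowest. The log2 fold change of Ptprc was 0.03 ± 0.27 (SE, adjusted p = 0.984, edgeR).

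In the comparison of Tbx20 KD with control, which shares its control libraries with the one above, 0 of 21 leukocyte and 0 of 11 endothelial genes passed by edgeR, 0 had an unadjusted p under 0.05, and DESeq2 called 0. Of all 14547 tested genes 0.00687% passed by edgeR, 2.69% had an unadjusted p under 0.05 and DESeq2 called 0.0687%. The leukocyte log2 fold changes were above 0 for 18 of 21 genes with a median of 0.18, beside -0.0022 over all genes. Without Tbx20 KD b they were above 0 for 6 of 21 and the median was -0.07. The endothelial values were above 0 for 9 of 11 genes with a median of 0.11. Of the 32 tested genes of the set, Cx3cr1 was the only one whose 3 Tbx20 KD libraries were all below control, an order found for 2.82% of all genes, and none had the opposite order, found for 4.04%. Cldn5, at 0 to 3 counts and untested, also had its 3 Tbx20 KD libraries below control.

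In Gata4 KD against Tbx20 KD, which uses no control library, again 0 of 21 leukocyte and 0 of 11 endothelial genes passed by edgeR, where 1.44% of 14477 genes did. Unadjusted p-values were under 0.05 for 4 leukocyte genes (Cd52, Lcp1, Cd74 and Csf1r) and for 2 endothelial genes (Vwf and Fabp4), and DESeq2 called 0 and 2. Over all genes the shares were 16.7% at an unadjusted p under 0.05 and 5.26% called by DESeq2, so the counts at an unadjusted p were near the background. Vwf had a log2 fold change of 0.62 ± 0.13 (SE) with an adjusted p of 0.0789 by edgeR and 0.0311 by DESeq2. Fabp4 had a log2 fold change of 1.31 ± 0.27 (SE) with an adjusted p of 0.0702 by edgeR and 0.00124 by DESeq2. It passed the edgeR threshold without Gata4 KD c, the lowest of the 3 Gata4 KD libraries for Fabp4, with a log2 fold change of 1.54 and an adjusted p of 0.00963. The largest leukocyte difference was that of Cd52, at -1.26 ± 0.45 (SE, adjusted p = 0.22, edgeR). Csf1r, Cd74 and Ctss were lower in every Gata4 KD library than in any Tbx20 KD library, or 3 of 21, near the 15.3% of all genes with this order, and Vwf and Fabp4 had the opposite order, 2 of 11 beside 8.83% of all genes.

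The leukocyte log2 fold changes between the knockdowns were below 0 for 19 of 21 genes with a median of -0.53, beside -0.0063 over all genes. Leaving out both Gata4 KD b and Tbx20 KD b, an alternative chosen after the data were seen, turned this to 8 of 21 below 0 and a median of 0.07. In the same fit the log2 fold changes were 0.58 for Vwf, 0.96 for Fabp4, -0.45 for Cd74 and -0.12 for Csf1r, and no gene of the set passed.

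**Figure D4:**
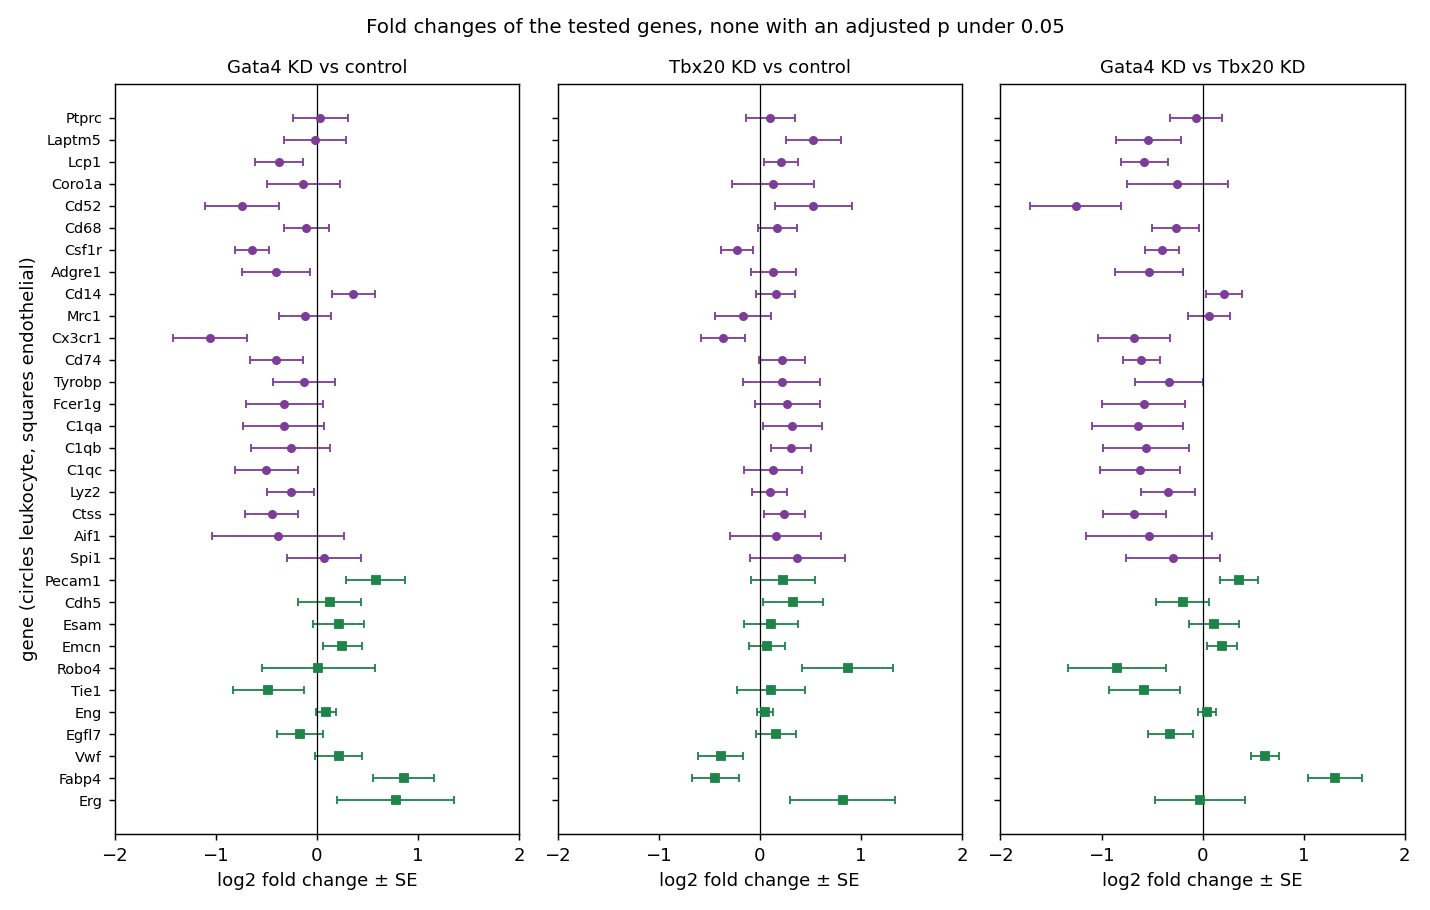
Log2 fold change ± SE (x axis, edgeR) of the 32 genes tested in each of the 3 comparisons (purple circles leukocyte, green squares endothelial). Leukocyte points lie mostly left of 0 for Gata4 KD against control (18 of 21) and against Tbx20 KD (19 of 21) and right of 0 for Tbx20 KD against control (18 of 21), and no gene has an adjusted p under 0.05.

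Further lists of marker genes place these levels beside other lineages, given as summed CPM over a list from its lowest to its highest library. The 5 B cell genes were near the floor, with 0.0551 to 0.215 CPM, and the 9 T and NK cell genes summed to 1.63 to 2.81 CPM. Of the latter 4 had no count in any library and Lck, the kinase of the T cell receptor, held most of the rest at a mean of 1.65 CPM. The 6 neutrophil genes summed to 0.256 to 0.606 CPM and the 5 mast cell genes to 0.580 to 1.19 CPM, nearly all of it Kit. The 8 erythroid and platelet genes reached 1.15 to 2.23 CPM, the 5 Schwann cell genes 18.1 to 21.4 CPM and the 3 lymphatic endothelial genes 37.4 to 54.6 CPM. The 12 fibroblast genes summed to 11698 to 18434 CPM and the 10 pericyte and smooth muscle genes to 1663 to 2255 CPM. The 7 dendritic and MHC class II genes summed to 6.75 to 16.4 CPM, with Flt3 at a mean of 7.82 CPM and H2-Eb1 at 0.826 CPM.

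Of 24 other macrophage genes, 20 had a mean of at least 0.2 CPM, and 12 of these 20 had both their lowest value in Gata4 KD b and their highest in Tbx20 KD b. Their sum was likewise lowest in Gata4 KD b at 292 CPM and highest in Tbx20 KD b at 353 CPM. Gpnmb, Mpeg1 and Mertk, which are not restricted to macrophages, held most of it at means of 149, 70.2 and 61.9 CPM, and of these Mpeg1 had the same lowest and highest library, at 47.1 and 102 CPM. Among 22 other endothelial genes, 1 of the 13 at that level had both, and among 12 fibroblast genes 2 had both. The share of all genes with both was not counted. No other macrophage gene passed in any of the 3 comparisons by edgeR, with 2 of 20, 0 of 20 and 4 of 19 at an unadjusted p under 0.05, where all genes gave 8.54%, 2.69% and 16.7%, and 1, 0 and 1 called by DESeq2, where all genes gave 1.89%, 0.0687% and 5.26%. For Cd53, a tetraspanin of leukocytes, the mean was 8.21 CPM in Gata4 KD, 3.82 CPM in control and 3.84 CPM in Tbx20 KD, opposite in direction to most leukocyte genes.

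Of the other endothelial genes, 2 passed the test. This list of 22 genes summed to 487 to 544 CPM in control, 308 to 356 CPM in Gata4 KD and 472 to 517 CPM in Tbx20 KD. Most of that sum was Ptprb, while Pecam1 was at 3.06 to 9.25 CPM, and the cells behind the Ptprb counts were not identified. Ptprb, the receptor phosphatase that pairs with endothelial cadherin, was at 470, 465 and 422 CPM in control, 247, 262 and 280 CPM in Gata4 KD, and 412, 391 and 438 CPM in Tbx20 KD. It fell in Gata4 KD by 0.77 on the log2 scale against control (SE 0.09, adjusted p = 0.0175, edgeR) and was lower there than in Tbx20 KD as well (adjusted p = 0.00894, edgeR). Kdr, the main receptor for vascular endothelial growth factor, was at 2.73, 3.42 and 2.32 CPM in control, 5.30, 6.21 and 5.04 CPM in Gata4 KD, and 3.24, 3.11 and 2.69 CPM in Tbx20 KD. It was higher in Gata4 KD than in Tbx20 KD by 0.90 ± 0.13 on the log2 scale (SE, adjusted p = 0.0258, edgeR), and against control its adjusted p was 0.0996. Ptprb did not pass against control without control a, Gata4 KD a or Gata4 KD b (adjusted p of 0.147, 0.175 and 0.106, edgeR), nor against Tbx20 KD without Gata4 KD a or Tbx20 KD c (0.0838 and 0.0638). Kdr still passed against Tbx20 KD without Gata4 KD c, and without each of the other 5 libraries its adjusted p was 0.0528 to 0.142 (edgeR). In the cardiomyocyte list Tnnt2, cardiac troponin T, was at 23.3 to 29.96 CPM in control and 7.68 to 8.64 CPM in Gata4 KD (adjusted p = 0.00272, edgeR).

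**Figure D5:**
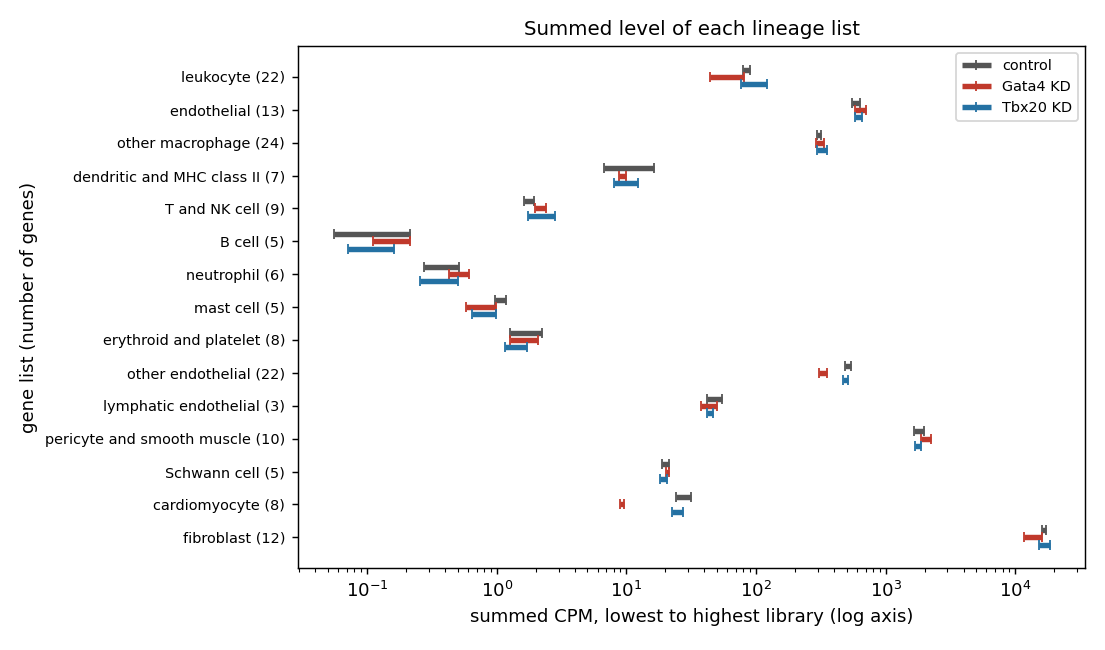
Summed CPM of each list of marker genes (rows, number of genes in brackets), drawn from the lowest to the highest of the 3 libraries of each group on a log axis (grey control, red Gata4 KD, blue Tbx20 KD). B cell genes lie lowest at 0.0551 to 0.215 CPM and fibroblast genes highest at 11698 to 18434 CPM. The leukocyte bars differ in length, with control spanning 79.1 to 89.6 CPM.

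As a description, the genes outside the set whose log2 CPM over the 9 libraries was most like the log2 summed leukocyte CPM were Zfp395, Myo1f, Ms4a7, Dhdds, Ms4a6d, Apoe, Mpzl1 and Tgm2, with Pearson r from 0.963 to 0.939 among 11753 genes searched. All 8 were lowest in Gata4 KD b and highest in Tbx20 KD b, the libraries with the lowest and highest leukocyte sum. Ranking by likeness to that sum favours this order, so it is no separate evidence about these genes. Ms4a7 is also in the list of other macrophage genes. Ms4a7 and Ms4a6d are membrane proteins of macrophages and Myo1f is a myosin of myeloid cells. Ms4a7 ranged from 0.884 to 3.68 CPM and Apoe, a lipid carrier that macrophages secrete, from 1.41 to 5.86 CPM, while Dhdds and Mpzl1 moved only from 37.4 to 44.0 CPM and from 49.8 to 70.2 CPM. The endothelial sum, which is carried by Eng, was most like Smo, P2ry2, Tnfrsf1a, Mcrip1, Mmab, Zer1, Agrn and Slc43a2, with r from 0.984 to 0.941.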

How the data were processed

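The study trimmed reads by quality, aligned them with Bowtie2 inside RSEM to GRCm38 and estimated abundance per gene with strand taken into account. The submitters' processing notes name mm9 instead. The deposited table holds expected counts per gene as whole numbers, not normalized. Symbols and positions came from GENCODE M21 on GRCm38 by gene ID, for 37607 of 38924 IDs.

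CPM was the count divided by the library total. Each comparison used its 6 libraries in R 4.3.3 with edgeR 4.0.16 (filterByExpr, TMM, quasi-likelihood F test) and Benjamini-Hochberg adjustment over all genes tested at 0.05. A sum over genes was not tested. DESeq2 1.42.0 and other filters, scalings and omissions were alternatives. The procedure was tested on simulated data.

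The genes, lists and tests were chosen with earlier results of these data known. Named were all 35 genes, Thy1, the targets, up to 3 most abundant genes of each further list with any past the threshold, and the 8 most alike per lineage. Cd53 and the genes named from a list beyond this were picked out after their values were seen.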

Additional observations from a re-analysis of the deposited data

Results flagged for a closer look

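For 3 genes of the further marker lists the direct test between Gata4 KD and Tbx20 KD passed, where 1.44% of all 14477 tested genes did. By that test the effects of the 2 knockdowns on these 3 genes differed. Ptprb and Kdr did not pass when some single libraries were left out. The log2 fold change of Gata4 KD against Tbx20 KD was -0.62 for Ptprb (adjusted p = 0.00894, edgeR), 0.90 for Kdr (adjusted p = 0.0258, edgeR) and -1.44 for Tnnt2 (adjusted p = 0.00154, edgeR). For 2 genes of the set, every Gata4 KD library lay on one side of the control mean and every Tbx20 KD library on the other, but the difference did not pass. These were Cd74, with a log2 fold change between the knockdowns of -0.61 (adjusted p = 0.16, edgeR), and Fabp4, with 1.31 (adjusted p = 0.0702, edgeR). No rule for outliers within a group was applied to single libraries, since each group had 3 libraries. Gata4 KD b and Tbx20 KD b were picked out by their values, without such a rule.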

How the results depend on the processing

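The refits covered the genes of the set tested in the reported fits, so Cd163, Cldn5 and Sox18 were not included. Of 1163 refitted log2 fold changes, 1090 kept their sign and their side of the threshold. Of the rest, 68 of genes not called changed sign, and 5 passed where the reported fit did not. The count of leukocyte genes called, 0 in every comparison, became 1 in Gata4 KD against control with DESeq2 (Csf1r). The count of endothelial genes called in Gata4 KD against Tbx20 KD became 2 with DESeq2 (Fabp4 and Vwf), 1 with no filter on low counts (Fabp4) and 1 without Gata4 KD c (Fabp4). Leaving out each library in turn, that count ran from 0 to 1, and from 0 to 0 for the leukocyte genes and in the other 2 comparisons. With the replicate letter as a block the counts of leukocyte and endothelial genes called were 0 in all 3 comparisons, and over all genes 5, 2 and 101 passed beside 55, 1 and 208. Same-letter libraries had correlations of -0.17 to 0.255 between their deviations from group means. No label gives the animal, sort or culture behind a letter, so whether the letters pair the libraries is unknown.

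The log2 ratio of summed leukocyte CPM was -0.32 for Gata4 KD against control (-0.47 to -0.09 with each library left out), 0.17 for Tbx20 KD against control (-0.07 to 0.29) and -0.48 between the knockdowns (-0.64 to -0.25). Without both b libraries the last was -0.019, an alternative chosen after the data were seen. For the endothelial sum the log2 ratio was 0.09 (0.0011 to 0.14), 0.06 (0.009 to 0.11) and 0.02 (-0.06 to 0.08), and without Eng it was 0.33 for Gata4 KD against control and 0.20 between the knockdowns. Of the genes outside the set, Ptprb in Gata4 KD against control lost its call under the block (adjusted p = 0.179) and without control a, Gata4 KD a or Gata4 KD b. Kdr between the knockdowns lost its call without any of 5 single libraries. A gene at 1 CPM rests on 31.2 to 41.95 counts per library, so its counting error alone is wide.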
